A study of Mus musculus with 36 samples.

Results

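Mitochondrial ribosomal proteins were examined as the genes whose single annotated symbol begins with Mrpl or Mrps followed by a digit. The rule, which used names and no measured values, found 74 of the 12393 genes that the arrays measured. These 74 genes were represented by 127 probe sets, and 33 of them had several, whose values were averaged. By subunit, 49 encode proteins of the large mitoribosomal subunit and 24 proteins of the small one. Mrps18a and Mrps30 were counted with the large subunit, where their proteins sit despite their names. Mrps36 was counted with neither, because its product is now known as a part of the oxoglutarate dehydrogenase complex.

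The mitoribosome translates the few messages encoded by mitochondrial DNA, which specify core subunits of the respiratory chain and ATP synthase. All of its proteins are nuclear-encoded, made in the cytosol and imported, while its ribosomal RNAs come from mitochondrial DNA. Of the members, 44 have a bacterial counterpart, and 29 occur in mitochondria only and extend the outer shell of the particle. The heart is rich in mitochondria and depends on this machinery to renew its respiratory chain.

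RNA of the left ventricle was measured on 36 arrays, 1 per mouse, with 18 mice after transverse aortic constriction (TAC), which narrows the aortic arch and raises the load on the ventricle, and 18 after a SHAM operation. Mice were killed 8 weeks after surgery at ZT03, ZT07, ZT11, ZT15, ZT19 or ZT23, with 3 mice for each surgery and time. Strain, sex, age and light schedule are not given in the labels used here, and no genetic change is named. The deposited values were centred to a median of 0 for each probe set within each surgery, so each value is a difference from the median of its own surgery. Levels of TAC and SHAM, of 2 genes, or of the markers that define a ventricle could not be compared, and the tissue label could not be checked in that way. The log base is not stated in the sources used here. Values were read as log2, and every fold given rests on that reading.

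The labels of time were checked on 15 clock genes, and 15 of 15 passed the rhythm test in each surgery. TAC ZT03 replicates 1 and 2 differed from their group in these genes, with clock means of 0.11 and 0.082 against -0.13 on replicate 3 and -0.12 to -0.11 on the SHAM ZT03 arrays. Dbp, a clock output gene, read 0.52 and 0.19 on them, between the -0.94 to -0.53 of the SHAM ZT03 arrays and the 1.30 to 1.49 of TAC ZT07. The calls in TAC are therefore also given without this pair. TAC ZT11 replicate 2 and TAC ZT15 replicate 3 stood apart in the members, with the lowest and the highest mean over the members. They were also among the 3 arrays with the widest distribution over all genes (interquartile ranges 0.193 and 0.178, with 0.187 for SHAM ZT03 replicate 3, against a lowest of 0.075). TAC ZT11 replicate 2 also had a lower clock mean (0.053) than replicates 1 and 3 (0.19 and 0.14). Dbp read 0.61 on it, against 1.39 and 1.23. The clock genes Arntl (-0.29 against -0.30 and -0.34) and Nr1d1 (0.12 against 0.10 and 0.23) were close to those of its group. T cell and thymocyte markers reached a mean of 2.72 on SHAM ZT11 replicate 3. The whole tissue was measured, so fewer cells of a type and less RNA per cell cannot be told apart in any value here.

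Sequences upstream of the genes are shown first. Some promoter letters, which the choice by name did not use, were more frequent in the members than in all genes. RefSeq windows on GRCm38.p6, from 250 bases before to 50 bases after a gene's start, were found for 65 of the 74 members. Letters known for 3 factors of nuclear genes for mitochondria were searched on both strands. The ETS letters CCGGAA, the core read by GABP (nuclear respiratory factor 2), were in the windows of 37 of 65 members (56.9%), against 16.7% of all 27025 genes with a window. The longer form CCGGAAGT, which is contained in that count, was in 11 members (16.9%) against 4.31%. The palindrome of nuclear respiratory factor 1 (NRF1), with any base at the sixth position, was in 12 members (18.5%) against 5.19% of all genes, and its exact form within them in 3 (4.62%) against 1.07%. YY1 letters, AAGATGGC, were in 11 members (16.9%) against 3.19%. At least 1 of these 3 kinds was in 50 members (76.9%) against 22.2% of all genes. The E-box CACGTG, the letters bound by the clock activators CLOCK and BMAL1, was in 5 members (7.69%) against 8.09%. The 27025 genes include genes beyond the 12393 that the arrays measured, and shares among measured genes alone were not computed. A match describes letters in a window and shows no binding.

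Of the 7 members that passed any test below, 4 hold an ETS or NRF1 match in the 250 bases before the start. The share of all genes or of all members with such a match in those 250 bases was not computed. These 4 are printed with Mrpl47 beside them, which has none of the letters searched. Mrps6 and Mrpl55, not printed, have none either. Capitals mark the match. The windows are chr8:71464676-71464925 on the plus strand (Mrpl34), chr11:120484387-120484636 on the plus strand (Mrpl12), chr4:49521084-49521333 on the minus strand (Mrpl50), chr14:57825989-57826238 on the plus strand (Mrpl57) and chr3:32736756-32737005 on the minus strand (Mrpl47). Each is written 5′ to 3′ on the strand of its gene and ends at the base before the start.
Mrpl34: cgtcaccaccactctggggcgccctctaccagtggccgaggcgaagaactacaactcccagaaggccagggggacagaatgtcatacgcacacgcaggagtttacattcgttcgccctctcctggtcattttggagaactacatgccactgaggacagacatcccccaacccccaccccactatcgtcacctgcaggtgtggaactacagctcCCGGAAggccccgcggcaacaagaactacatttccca
Mrpl12: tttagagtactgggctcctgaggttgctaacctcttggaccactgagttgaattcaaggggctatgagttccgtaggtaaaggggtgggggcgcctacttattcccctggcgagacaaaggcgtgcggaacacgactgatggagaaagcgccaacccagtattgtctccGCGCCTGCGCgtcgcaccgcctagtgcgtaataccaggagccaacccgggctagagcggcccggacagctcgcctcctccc
Mrpl50: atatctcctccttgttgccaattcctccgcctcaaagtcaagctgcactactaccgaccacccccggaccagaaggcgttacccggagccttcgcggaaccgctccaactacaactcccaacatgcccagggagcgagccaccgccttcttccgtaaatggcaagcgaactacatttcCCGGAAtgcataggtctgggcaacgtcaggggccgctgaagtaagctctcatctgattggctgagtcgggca
Mrpl57: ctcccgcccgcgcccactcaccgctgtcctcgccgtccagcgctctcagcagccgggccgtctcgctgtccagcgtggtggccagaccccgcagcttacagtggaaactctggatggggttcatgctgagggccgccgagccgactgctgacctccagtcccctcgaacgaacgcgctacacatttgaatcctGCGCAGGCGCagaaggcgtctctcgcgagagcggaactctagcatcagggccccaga
Mrpl47: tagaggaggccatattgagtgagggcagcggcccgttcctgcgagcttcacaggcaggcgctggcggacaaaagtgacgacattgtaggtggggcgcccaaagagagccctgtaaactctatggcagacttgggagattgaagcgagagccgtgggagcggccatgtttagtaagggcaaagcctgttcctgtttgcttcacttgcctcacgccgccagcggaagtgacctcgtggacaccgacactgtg
In Mrpl34 and Mrpl50 the capitals are the ETS letters. In Mrpl57 they are the NRF1 letters, and in Mrpl12 the NRF1 letters as they read on the opposite strand. The windows of Mrpl47, Mrpl50 and Mrpl57 overlap those of genes that start in the opposite direction, Ndufb5 (a subunit of respiratory complex I), Zfp189 and Ska3.

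Across the day, nearly all members were higher at ZT15, ZT19 and ZT23 than at ZT03, ZT07 and ZT11. In SHAM hearts the mean of the 3 later times lay above that of the 3 earlier ones for 72 of 74 members (97.3%), a direction seen in 38% of all genes. In TAC hearts it did so for 73 of 74 (98.6%), against 45.3% of all genes. In both surgeries together 72 members (97.3%) were higher at the later times, against 28.7% of all genes. These 6 times were divided after their values had been seen, and the counts are a description with no test, since all members were read from the same arrays.

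Sizes were small. The median member was higher at the later times by 0.068 in SHAM and by 0.10 in TAC on the log2 scale, while the medians over all genes were -0.019 and -0.0093. Single members ranged from -0.013 to 0.23 in SHAM and from -0.066 to 0.25 in TAC. The highest difference in SHAM was that of Mrpl18, the homologue of a bacterial protein of the central protuberance (0.23), and in TAC that of Mrps18c (0.25), a member of the bacterial S18 family.

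**Figure D1:**
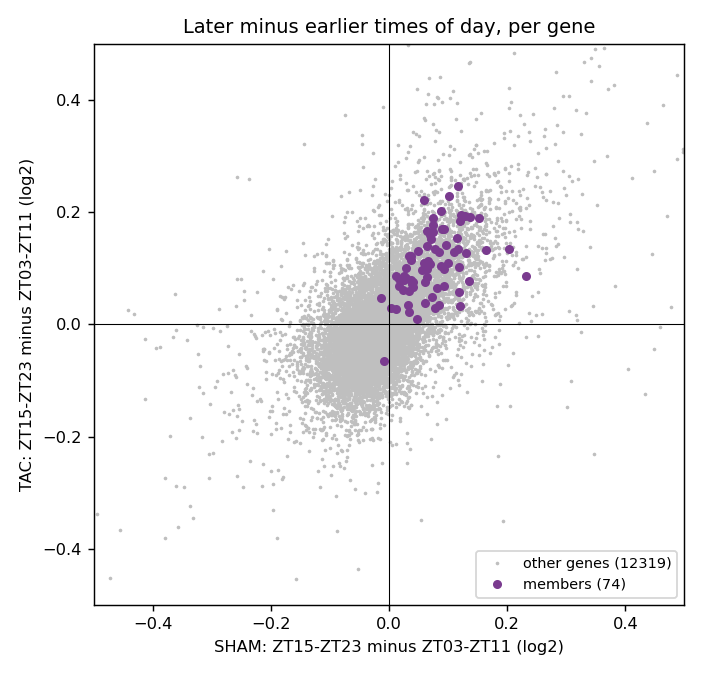
Mean of ZT15, ZT19 and ZT23 minus mean of ZT03, ZT07 and ZT11 in SHAM (x axis, log2) and in TAC (y axis, log2), 1 point per gene, members in purple. Of the 74 members 72 lie above 0 on both axes, as do 28.7% of all genes, and 50 genes, none of them members, lie outside the axes.

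Both subunits showed this. All 24 small-subunit members were higher at the later times in both surgeries, with median differences of 0.083 in SHAM and 0.12 in TAC. Of the 49 large-subunit members 47 were, with medians of 0.061 and 0.087. Of members with a bacterial counterpart 43 of 44 were higher in both surgeries, and of those found in mitochondria only 28 of 29. Mrps36, which is no ribosomal subunit, was higher at the later times by 0.12 in SHAM and 0.10 in TAC.

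The exceptions were Mrpl57 and Mrpl33, and for both genes the 2 probe sets went different ways. Mrpl57, a large-subunit protein known in mitochondria only, was lower at the later times by its average (-0.0091 in SHAM, -0.066 in TAC). Its probe set 1418137_at was higher at the later times (0.050 in SHAM and 0.048 in TAC), and 1460225_at was lower (-0.068 and -0.18). Mrpl33, homologue of a small bacterial large-subunit protein, was lower in SHAM only (-0.013), with 0.042 for its probe set 1448190_at and -0.069 for 1425843_at. The 41 members read by a single probe set were all higher at the later times in both surgeries, 41 of 41, against 24.8% of the 7437 genes with 1 probe set. Of the 127 member probe sets 103 (81.1%) were higher in both surgeries, against 29.8% of all 20380.

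**Figure D2:**
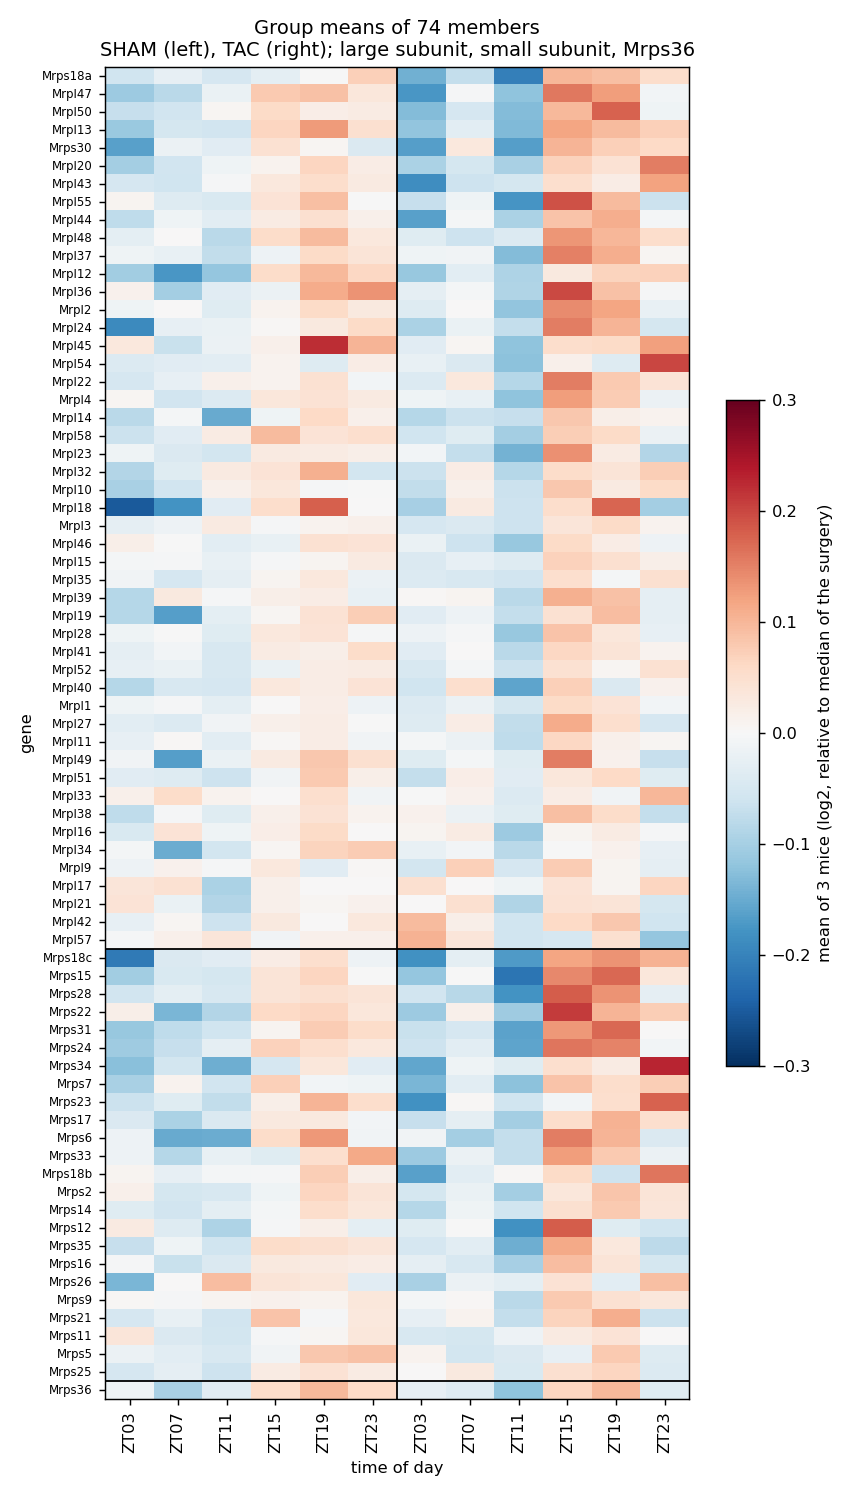
Group mean of each member (rows; mean of 3 mice, log2 relative to the median of the surgery) at the 6 times in SHAM (left) and TAC (right). Rows are ordered within the large subunit, the small subunit and Mrps36 by the difference of later and earlier times in TAC. Red, for values above 0, prevails at ZT15 to ZT23 in both surgeries, and Mrpl57, lower at the later times in both surgeries, is the bottom row of the large subunit.

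The mean over the 74 members showed the course array by array. In SHAM it was -0.0079, -0.024 and -0.11 at ZT03, then -0.042, -0.077 and -0.0058 at ZT07, and -0.082, 0.0056 and -0.038 at ZT11. At ZT15 it was 0.032, 0.026 and 0.0052, at ZT19 0.065, 0.067 and 0.013, and at ZT23 0.047, 0.017 and 0.0071. All 9 SHAM arrays of the later times were above 0 and 8 of the 9 earlier ones below it, and the later and earlier arrays crossed only between ZT11 replicate 2 and ZT15 replicate 3.

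In TAC the arrays were spread more widely. The earlier values were -0.092, -0.061 and -0.020 at ZT03, then 0.012, -0.045 and -0.011 at ZT07, and 0.041, -0.22 and -0.096 at ZT11. The later ones were -0.0038, 0.040 and 0.21 at ZT15, then 0.11, 0.057 and 0.017 at ZT19, and -0.038, 0.0037 and 0.076 at ZT23. In TAC 7 of 9 earlier arrays lay below 0 and 7 of 9 later arrays above it, and the later and earlier arrays overlapped.

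The 2 arrays that stood apart carried part of the TAC pattern, since each lay on the side of its own times. On TAC ZT11 replicate 2 only 2 of 74 members were above 0, and on TAC ZT15 replicate 3, 68 of 74. Without these 2 arrays 68 members were higher at the later times in TAC, against 47.3% of all genes, and 67 in both surgeries, against 27.6%. The median difference in TAC was then 0.064 in place of 0.10, close to the 0.068 of SHAM. Without TAC ZT03 replicates 1 and 2 the count in both surgeries was 72 and the median difference in TAC 0.090.

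**Figure D3:**
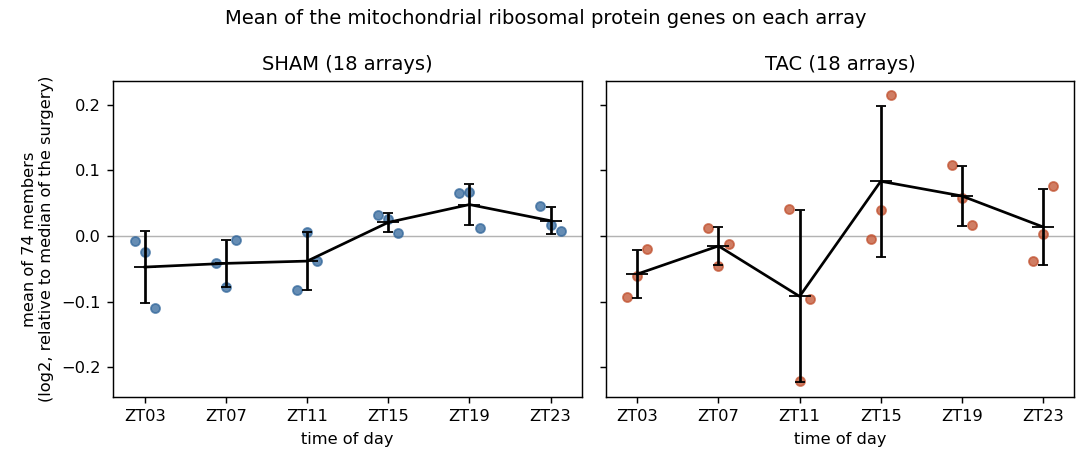
Mean of the 74 members on each array (points; log2 relative to the median of the surgery) by time of day, with the mean and SD of each group of 3 mice in black. In SHAM the 9 later arrays lie between 0.0052 and 0.067; in TAC the arrays at -0.22 (ZT11) and 0.21 (ZT15) lie farthest from the rest.

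Markers of other cells and of ventricular load also differed between the TAC time groups. Myh7, the fetal myosin gene that rises in loaded mouse ventricles, had group means in TAC of -0.64 at ZT03, 0.17 at ZT07, 0.53 at ZT11, -0.84 at ZT15, -0.86 at ZT19 and 1.38 at ZT23, where the SHAM groups lay between -0.14 and 0.29. On the array with the lowest member mean Myh7 was 1.17, and on the one with the highest it was -1.95. The mean of 6 of 6 measured fibroblast markers ranged from -0.57 to 0.79 on the earlier and from -0.75 to 0.76 on the later TAC arrays, and from -0.23 to 0.29 and -0.12 to 0.20 in SHAM. It was 0.54 and -0.75 on the same pair of arrays, where the mean of 6 cardiomyocyte markers was -0.21 and -0.13. Other TAC arrays ran differently. TAC ZT03 replicate 1 had Myh7 at -1.70, fibroblast markers at -0.57 and a member mean of -0.092. On TAC ZT23 replicate 3 these were 0.96, 0.54 and 0.076.

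The mean of 3 white adipocyte markers reached 0.80, 0.81 and 1.02 on the arrays of TAC ZT15, within a range in TAC of -0.62 to 1.36. The mean of 3 brown adipocyte markers averaged 0.92 at TAC ZT15 (0.56 to 1.15), where the other TAC groups lay between -0.092 and 0.22 and the SHAM groups between -0.081 and 0.43. Gene by gene, 1 of 3 white markers was higher at the later times in TAC (median -0.066) and 2 of 3 brown ones (median 0.37). Atrial markers were higher at the later times in SHAM for 4 of 4 genes (median 0.41) and in TAC for 1 of 4 (median -0.19). Of 6 cardiomyocyte markers 4 were higher at the later times in both surgeries, with medians of 0.025 and 0.030. Which of these markers are absent from the tissue could not be read from centred values, and the part of these cells and of Myh7 in the members' course was not tested. Without the 4 arrays that had a thymocyte or airway marker mean above 0.5, 72 members were higher at the later times in each surgery.

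A 24-hour curve was fitted to every gene. Its amplitude runs from the mean to the peak, and its SE rests on a spread estimated over all 36 arrays, with 18 arrays behind each curve. Fitted peaks of 67 members in SHAM (90.5%) and 69 in TAC (93.2%) fell between ZT15 and ZT23, against 26.1% and 35.4% of all genes. The median peak was at ZT19.0 in SHAM and ZT18.4 in TAC. The median amplitude was 0.056 in SHAM and 0.070 in TAC, against 0.048 and 0.047 over all genes. The lowest member amplitudes were 0.0057 in SHAM and 0.0097 in TAC, and a peak time is poorly defined where the amplitude is so low. Peak times describe the same values as the counts of later and earlier times above and are no separate evidence.

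Few members passed the rhythm test by themselves. In SHAM 3 of 74 members had an adjusted p under 0.05 (limma's moderated F-test, Benjamini-Hochberg over all genes), or 4.05% against 5.58% of all genes. At an unadjusted p under 0.05 there were 15 (20.3%) against 18.8%. That comparison moved with the processing, and in both directions. It was 40.5% against 24.7% after quantile normalization and 41.9% against 25.2% with the 18 SHAM arrays alone. Without TAC ZT11 replicate 2 and TAC ZT15 replicate 3 it was 31.1% against 21.3%. Without all arrays of replicate number 1 it was 13.5% against 19.3%, without number 2 9.46% against 10.3%, and without number 3 20.3% against 13%. The 3 members that passed after adjustment were Mrpl34, Mrpl12 and Mrps6.

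Mrpl34, homologue of a small basic protein of the bacterial large subunit, read -0.028, -0.0085 and 0.017 in the SHAM mice of ZT03, -0.16, -0.15 and -0.14 at ZT07, and -0.099, -0.062 and -0.0066 at ZT11. It read -0.017, 0.011 and 0.022 at ZT15, 0.022, 0.070 and 0.11 at ZT19, and 0.050, 0.086 and 0.090 at ZT23. The ZT07 mice were the lowest and did not overlap any other time. Its amplitude was 0.10 ± 0.02 (SE, n = 18) with a peak at ZT20.3 ± 0.80 h and a peak-to-trough fold of 1.15 (limma adjusted p = 0.00625), and the call held without any single array (adjusted p 0.00142 to 0.0252). It was lost without all arrays of any 1 replicate number (limma adjusted p 0.0575 to 0.236). In TAC the amplitude was 0.022 and the adjusted p 0.795, but the difference between the surgeries did not pass (limma adjusted p = 0.789). The call rested on 1 of its 2 probe sets: 1416349_at had an amplitude of 0.16 and an adjusted p of 0.00908 in limma, and 1438014_at 0.047 and 0.567.

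Mrpl12, homologue of the bacterial stalk protein L12, read -0.24, -0.13 and 0.054 in SHAM at ZT03, -0.23, -0.21 and -0.083 at ZT07, and -0.35, -0.028 and 0.028 at ZT11. It read -0.048, 0.098 and 0.11 at ZT15, 0.051, 0.10 and 0.14 at ZT19, and -0.085, 0.13 and 0.14 at ZT23. All 3 ZT07 mice were below all ZT15 and ZT19 mice, while mice of ZT03 and ZT11 overlapped those of the later times. The amplitude was 0.15 ± 0.03 (SE, n = 18), the peak at ZT19.1 and the fold 1.23 (limma adjusted p = 0.0110), and the call held without any single array but was lost without replicate number 2 or 3 (adjusted p = 0.158 and 0.128 in limma). In TAC the curve peaked at ZT19.3 with an amplitude of 0.084 and did not pass (limma adjusted p = 0.247).

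Mrps6, homologue of a small-subunit protein of bacteria, read -0.092, 0.017 and 0.029 in SHAM at ZT03, -0.33, -0.091 and -0.033 at ZT07, and -0.17, -0.17 and -0.10 at ZT11. It read 0.022, 0.047 and 0.097 at ZT15, 0.085, 0.15 and 0.16 at ZT19, and -0.096, -0.017 and 0.079 at ZT23. ZT19 lay wholly above ZT03, ZT07, ZT11 and ZT23. The amplitude was 0.13 ± 0.03 (SE, n = 18), the peak at ZT19.6 and the fold 1.20 (limma adjusted p = 0.0335). The call was lost without any of SHAM ZT07 replicate 2 (adjusted p = 0.137 in limma), the 3 ZT19 arrays (0.0561 to 0.0879), ZT11 replicates 1 and 3 (0.0532 and 0.0528) or ZT23 replicate 3 (0.0516).

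Just outside the threshold in SHAM were Mrpl45, Mrpl19 and Mrpl18. Mrpl45, which ties the ribosome to the inner membrane, read 0.12, 0.25 and 0.30 at ZT19, and 2 of these mice lay above all other SHAM mice. Its amplitude was 0.12 (limma adjusted p = 0.0644). Mrpl19 had an amplitude of 0.10 (adjusted p = 0.0688) and Mrpl18 of 0.19 (adjusted p = 0.0698), the largest of any member in SHAM, with 2 of its ZT03 mice at -0.33 and -0.50 and the third at 0.083.

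In TAC 2 of 74 members passed the rhythm test (2.70% against 4.35% of all genes), Mrpl47 and Mrpl50. At an unadjusted p under 0.05 there were 31 members (41.9%) against 19.8% of all genes. That share rested in part on single arrays. Without TAC ZT11 replicate 2 and TAC ZT15 replicate 3 it was 19 members (25.7%) against 16.2%. Without TAC ZT19 replicate 1 it was 19 members (25.7%) against 16.4%. The share also moved with the spread, which the main fit shared between the surgeries. With the 18 TAC arrays alone it was 14 members (18.9%) against 13.6% of all genes. With the 18 SHAM arrays alone the SHAM count was 31 (41.9%) against 25.2%, so TAC no longer had the higher count. The SEs given rest on the shared spread too, while the median SD of the members was 0.069 in SHAM and 0.11 in TAC. Without TAC ZT03 replicates 1 and 2 no member passed after adjustment, against 5.18% of all genes in limma, and 24 (32.4%) against 21.6% had an unadjusted p under 0.05.

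Mrpl47, which lies at the exit of the nascent peptide, read -0.18, -0.17 and -0.17 in the TAC mice of ZT03, -0.014, -0.014 and 0.018 at ZT07, and -0.31, -0.14 and 0.082 at ZT11. It read -0.0016, 0.17 and 0.31 at ZT15, 0.070, 0.14 and 0.17 at ZT19, and -0.10, 0.0016 and 0.074 at ZT23. The ZT03 mice lay close together and below all other TAC mice but 1, at ZT11. The amplitude was 0.13 ± 0.03 (SE, n = 18), the peak at ZT17.1 ± 0.94 h and the fold 1.20 (limma adjusted p = 0.0354). A test of any change over the 6 times, which assumes no curve, also passed (limma adjusted p = 0.0175) and held without any single array. That call was lost without replicate number 2 or 3 (limma adjusted p = 0.488 and 0.254), with the 18 TAC arrays alone (0.206) and after quantile normalization (0.0841). Without TAC ZT03 replicates 1 and 2 both calls were lost (limma adjusted p = 0.0817 for change over the times and 0.105 for the rhythm). The rhythm call was lost without any 1 of the ZT03 or ZT19 arrays of TAC or of TAC ZT15 replicates 2 and 3 (adjusted p 0.0512 to 0.0947 in limma). In SHAM Mrpl47 peaked at ZT17.5 with an amplitude of 0.10 and did not pass (limma adjusted p = 0.127).

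Mrpl50, a large-subunit protein of mitochondria only, read -0.16, -0.15 and -0.078 in TAC at ZT03, -0.075, -0.041 and -0.032 at ZT07, and -0.26, -0.19 and 0.051 at ZT11. It read -0.017, 0.046 and 0.26 at ZT15, 0.13, 0.19 and 0.21 at ZT19, and -0.13, 0.038 and 0.049 at ZT23. ZT19 lay above every other TAC mouse but TAC ZT15 replicate 3. The amplitude was 0.14 ± 0.04 (SE, n = 18), the peak at ZT18.1 and the fold 1.21 (limma adjusted p = 0.0494). Of the 36 fits that each left out 1 array the call held in 10, with adjusted p-values from 0.0348 to 0.105 in limma, and without both TAC ZT03 replicates 1 and 2 the adjusted p was 0.0996. Zfp189, the gene that starts in the opposite direction from the window shown above, was higher at the later times by 0.022 in TAC, where Mrpl50 was by 0.19.

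**Figure D4:**
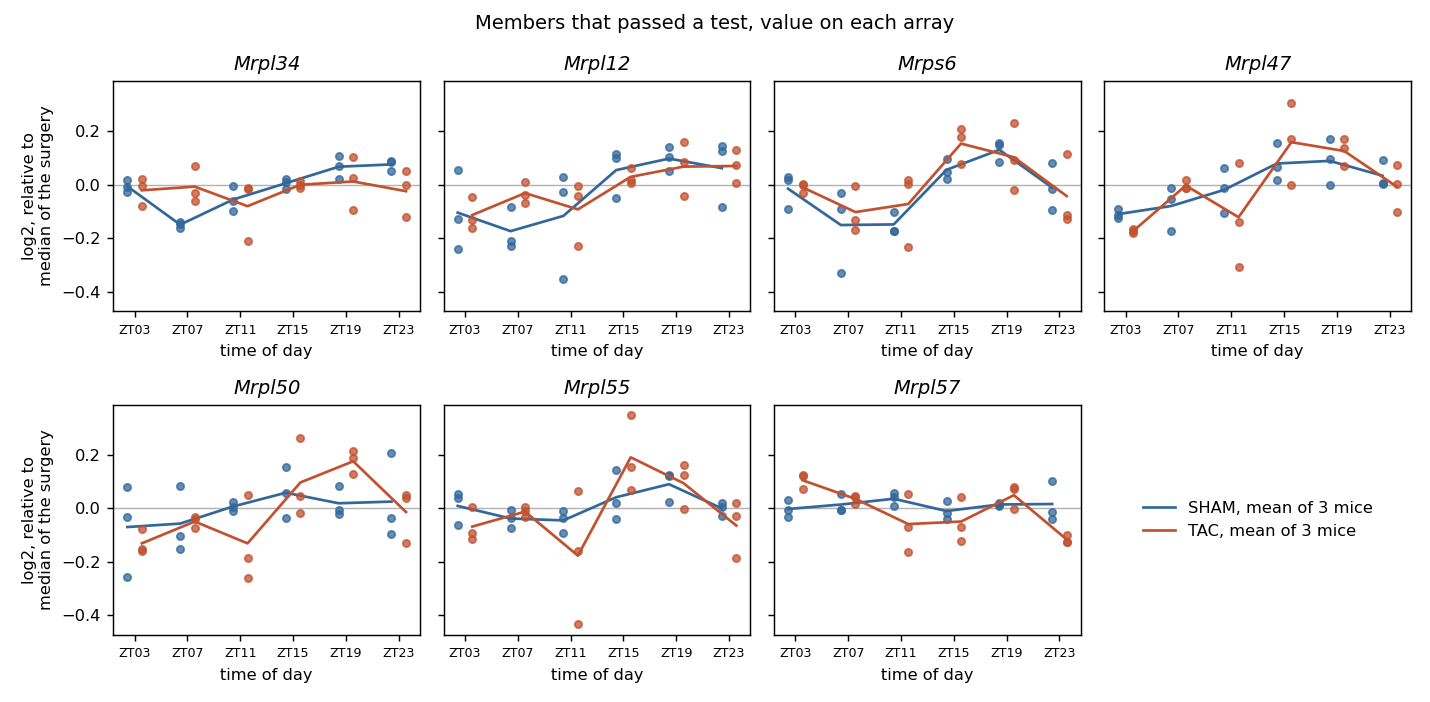
Value on each array (points) and mean of 3 mice (lines) of the 7 members that passed a test, by time of day in SHAM (blue) and TAC (orange), on the log2 scale relative to the median of the surgery. Mrpl34, Mrpl12 and Mrps6 have their lowest SHAM means at ZT07 or ZT11, Mrpl47 and Mrpl50 their highest TAC means at ZT15 or ZT19, and Mrpl57 its highest TAC mean at ZT03.

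The test of any change over the 6 times passed for 3 of 74 members in TAC (4.05% against 5.26% of all genes), Mrpl47, Mrpl57 and Mrpl55. At an unadjusted p under 0.05 it passed for 30 (40.5%) against 20.3%, and for 20 (27.0%) against 19.0% without the 2 arrays with the lowest and highest member means. It was 49 (66.2%) against 25.6% without TAC ZT11 replicate 1, and 17 (23.0%) against 12.4% with the 18 TAC arrays alone. The excess was not seen without all arrays of replicate number 2 (6 members, 8.11% against 8.4%). Nearly none was left without number 3 (17, 23.0% against 22.6%), while without number 1 it was 42 (56.8%) against 20.1%. Without TAC ZT03 replicates 1 and 2 it was 22 (29.7%) against 16.1%, and no member passed after adjustment, against 4.07% of all genes in limma. In SHAM it passed for 0 of 74 members (3.37% of all genes), and for 9 (12.2%) against 13.2% at an unadjusted p in limma. With the 18 SHAM arrays alone the unadjusted count was 19 (25.7%) against 18.7%. In the fit to all 36 arrays the lowest limma adjusted p in SHAM was 0.0535, for Mrpl34.

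Mrpl55, a large-subunit protein, read -0.12, -0.091 and 0.0032 in TAC at ZT03, -0.033, -0.0084 and 0.0038 at ZT07, and -0.43, -0.16 and 0.063 at ZT11. It read 0.070, 0.15 and 0.35 at ZT15, -0.0032, 0.12 and 0.16 at ZT19, and -0.18, -0.030 and 0.021 at ZT23. Its extremes were the 2 arrays that stood apart, -0.43 and 0.35. The change passed (limma adjusted p = 0.0373) and was lost without both (0.188), without TAC ZT15 replicate 3 alone (0.122), TAC ZT11 replicate 2 (0.0507) or replicate 3 (0.0718), TAC ZT19 replicate 1 (0.0563) or replicate 2 (0.0607), TAC ZT03 replicate 1 (0.0543) or TAC ZT15 replicate 1 (0.0504). Without TAC ZT03 replicates 1 and 2 the limma adjusted p was 0.0545.

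Mrpl57 differed in shape from the others. In TAC it read 0.071, 0.12 and 0.13 at ZT03, 0.016, 0.043 and 0.047 at ZT07, and -0.16, -0.069 and 0.055 at ZT11. It read -0.12, -0.069 and 0.042 at ZT15, -0.0033, 0.072 and 0.079 at ZT19, and -0.13, -0.12 and -0.098 at ZT23. The ZT23 mice were all low and the ZT03 mice all high, 4 h apart, with no overlap between them. The change passed (limma adjusted p = 0.0206) and was lost without TAC ZT23 replicate 1 (0.0524) or TAC ZT03 replicate 1 (0.0547), and without both TAC ZT03 replicates 1 and 2 it was 0.0837. The part of the clock genes of those mice in these calls was not tested. It was carried by 1460225_at (limma adjusted p = 0.00897), while 1418137_at did not pass (0.902), and over the 36 arrays the 2 probe sets correlated at r = -0.38.

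Members next in order in TAC did not pass. For the rhythm these were Mrps18a (limma adjusted p = 0.0562), Mrpl20 (0.0737), Mrps31 (0.0833) and Mrpl15 (0.0923), which peaked between ZT17.8 and ZT19.9. For the change over the 6 times they were Mrps18b (0.0557), Mrpl20 (0.0621) and Mrps18a (0.0651). Mrps18b, another protein of the S18 family, read -0.23, -0.14 and -0.12 at ZT03 and 0.041, 0.16 and 0.28 at ZT23 in TAC, with no overlap.

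Differences between the surgeries were tested directly, and no member passed. For the 24-hour curve 0 of 74 members passed in limma against 0.0484% of all genes, with 1 member (1.35%) against 6.27% at an unadjusted p under 0.05. The smallest adjusted p was that of Mrpl34 (0.789), followed by Mrpl49 (0.840), Mrps11 (0.851), Mrpl15 (0.857), Mrps18a (0.861) and Mrpl36 (0.863). For the time course with no curve 0 passed against 0.0161%, with 2 members (2.70%) against 5.57% at an unadjusted p in limma, and the lowest adjusted p-values were those of Mrpl57 (0.620), Mrps18b (0.871), Mrpl36 (0.896), Mrpl34 (0.911), Mrpl49 (0.966) and Mrpl38 (1). Mrpl49, a large-subunit protein of mitochondria only, peaked at ZT19.3 in SHAM and ZT14.8 in TAC by the fitted curves. Mrpl36, homologue of the smallest bacterial large-subunit protein, peaked at ZT21.1 and ZT17.3. These results do not show that the courses were alike in the 2 surgeries.

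Mice of a TAC group varied more in these genes than mice of a SHAM group. The SD within groups was higher in TAC for 62 of 74 members (83.8%), against 71.9% of all genes. The median SD was 0.069 in SHAM and 0.11 in TAC for the members, and 0.077 and 0.094 for all genes. The median log2 ratio of the SDs was 0.61 for the members and 0.29 for all genes, and the SD was at least doubled in 18 members (24.3%) against 9.26% of all genes. Without the 2 arrays that stood apart the medians were 0.24 and 0.16, and the SD was higher in TAC for 50 members against 61.9% of all genes. It was then at least doubled in 5 members (6.76%) against 6.95%. This comparison is a description, with no test.

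The largest ratio was that of Mrps9, a small-subunit homologue of bacteria that spanned -0.047 to 0.055 over the 18 SHAM mice and -0.21 to 0.32 over the 18 TAC mice. Its SD was 0.031 in SHAM and 0.12 in TAC, and its extremes were the 2 arrays that stood apart. Mrps15, which binds the small-subunit RNA, followed with 0.057 and 0.18 and reached -0.54 and 0.47 on the 2 arrays that stood apart. Mrpl37 had SDs of 0.042 and 0.13, and Mrps31 of 0.052 and 0.16. Without those 2 arrays the log2 ratio of the SDs fell from 1.92 to 1.19 in Mrps9 and from 1.65 to 0.56 in Mrps15. It went from 1.63 to 1.56 in Mrpl37, then the largest of any member, and from 1.61 to 0.97 in Mrps31. The opposite was seen in Mrps34 (0.19 in SHAM, 0.098 in TAC) and Mrps14 (0.082 and 0.046). In Mrps34 replicate 1 was the lowest at each SHAM time. It read -0.51 to -0.019, against -0.082 to 0.12 on the SHAM arrays of replicates 2 and 3.

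**Figure D5:**
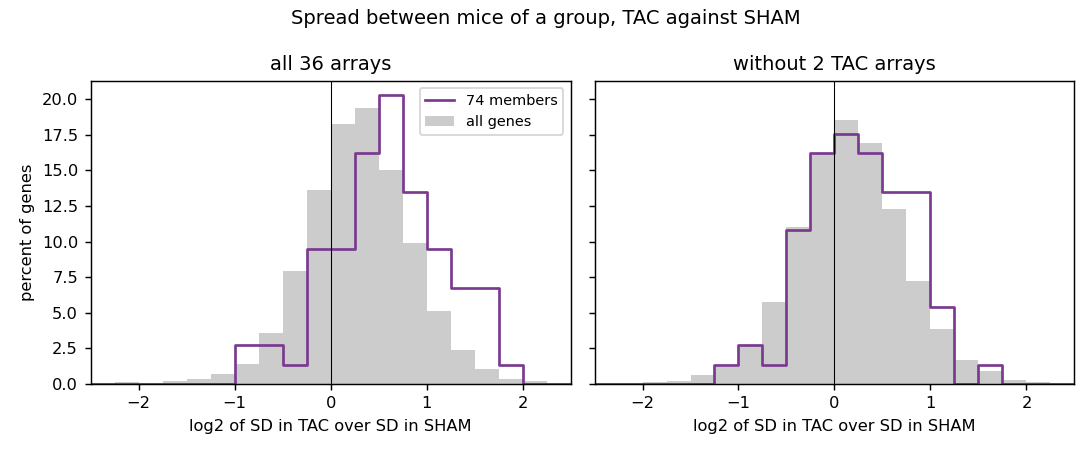
Distribution of the log2 ratio of the SD within TAC groups to the SD within SHAM groups, as percent of genes, for all genes (grey) and the 74 members (purple), over all 36 arrays (left) and without TAC ZT11 replicate 2 and TAC ZT15 replicate 3 (right). The member median of 0.61 against 0.29 for all genes on the left becomes 0.24 against 0.16 on the right.

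Members varied together from mouse to mouse. With group means removed, the mean correlation between pairs of members was 0.21 in SHAM and 0.47 in TAC, each from 18 arrays, against 0.016 and 0.017 between pairs of all genes. Without the 2 arrays that stood apart the TAC value for the members was 0.31. Pairs within other lists gave 0.18 in SHAM and 0.48 in TAC for subunits of oxidative phosphorylation, 0.33 and 0.38 for cytosolic ribosomal proteins, and 0.29 and 0.78 for the 4 mitoribosomal subunits under other symbols. All pairs share the same arrays, so these values are a description. Over the 36 arrays Mrps24 (r = 0.93), Mrps28 (0.92) and Mrps15 (0.91), all of the small subunit, followed the mean of the other members most closely. Mrps11 (-0.31), Mrps5 (-0.025) and Mrpl33 (-0.014) followed it least.

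Mrps11, homologue of the bacterial platform protein S11, was another gene whose average hid its probe sets. Its probe set 1460195_at had a TAC amplitude of 0.11 with a peak at ZT19.3 and passed the rhythm test among all probe sets (limma adjusted p = 0.00230), while 1455233_at did not (0.558). Tested singly, 5 of 127 member probe sets passed the rhythm test in TAC (3.94% against 3.87% of all 20380), those of Mrpl47, Mrpl50, Mrps11, Mrpl15 (1434971_x_at) and Mrpl51 (1416878_at). The last of these peaked at ZT12.6, away from the other members, and its sister 1416877_a_at at ZT18.5. Of the 33 members with several probe sets 18 had at least 1 pair that correlated below 0 over the 36 arrays.

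Other genes of the same machinery were counted beside the members. The mitoribosomal subunits under other symbols, Dap3, Ptcd3, Chchd1 and Gadd45gip1, were higher at the later times in both surgeries in 4 of 4 cases, with medians of 0.077 in SHAM and 0.13 in TAC, and none passed a test. Of 23 genes of mitochondrial protein import, which brings the members' proteins to their place, 21 (91.3%) were higher at the later times in both surgeries, with medians of 0.074 and 0.14. Timm8a1, a small chaperone of the intermembrane space, passed the rhythm test in both surgeries (limma adjusted p = 0.0124 in SHAM and 0.00285 in TAC) with peaks at ZT18.9 and ZT18.4. Timm17a and Timm23, parts of the inner membrane channel, passed it in TAC (limma adjusted p = 0.0285 and 0.0102).

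Of 80 subunits of oxidative phosphorylation, the complexes that the mitoribosome helps to supply, 66 (82.5%) were higher at the later times in both surgeries, with medians of 0.052 and 0.074. None passed the rhythm test, and Ndufa8 and Uqcr10 passed the test of change over the times in TAC (limma adjusted p = 0.0346 and 0.0460). Of 48 cytosolic ribosomal proteins 34 (70.8%) were higher at the later times in both, with medians of 0.027 and 0.061. Rps9 passed the rhythm test in SHAM (limma adjusted p = 0.0299) with a peak at ZT15.3, and Rpl3l, a form made in muscle, changed over the times in TAC (0.0163). Their median log2 ratio of SDs was -0.032, where that of the members was 0.61 and that of the oxidative phosphorylation genes 0.65. The mean of the cytosolic list was 0.19 on SHAM ZT11 replicate 3, the array with high thymocyte markers. Its SD in that group was 0.137, against 0.0114 to 0.0425 in the other SHAM groups. The cytosolic ratio without that array is not given here. The members' ratio was 0.24 without the 2 TAC arrays that stood apart.

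Factors that act on the mitoribosome were more mixed. Of 19 assembly factors 13 (68.4%) were higher at the later times in both surgeries. Mrm1, an RNA methyltransferase of the large ribosomal RNA, passed the rhythm test in SHAM (limma adjusted p = 0.0235), Fastkd5, which acts in mitochondrial RNA processing, passed in TAC (0.0152), and Mrm3, another methyltransferase, changed over the times in TAC (0.0274). Of 9 translation factors 7 were higher in both surgeries and none passed a test. Of 11 mitochondrial aminoacyl-tRNA synthetases and related enzymes 5 (45.5%) were, and Qrsl1, a subunit of the amidotransferase that completes glutaminyl-tRNA, passed the rhythm test in both surgeries with peak-to-trough folds of 1.30 and 1.31. Of 20 regulators of mitochondrial biogenesis 9 (45.0%) were higher at the later times in both. Gabpb1, a subunit of GABP, passed the rhythm test in both surgeries (limma adjusted p = 0.0246 and 0.0212) and peaked at ZT2.71 and ZT2.14. Nfe2l2, a factor of the antioxidant response, passed in SHAM (0.0156 in limma; peak ZT15.2). Pprc1, a coactivator of the PGC-1 family, and Polg2, the accessory subunit of the mitochondrial DNA polymerase, passed in TAC (0.0176 and 0.0208 in limma; peaks ZT21.1 and ZT5.53). These were 2 of 20 in SHAM and 3 of 20 in TAC, beside 5.58% and 4.35% of all genes.

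Genes outside the module that followed the member mean most closely from mouse to mouse, over 36 arrays with group means removed, were Ss18l2 (r = 0.92), Mtif2 (0.92), a mitochondrial translation initiation factor, Park7 (0.92) and Uqcr11 (0.91), a subunit of complex III, followed by Mettl23, Pfdn6, Pkig and Chchd7 (0.89 to 0.91). Over the 12 group means they were Mmachc (r = 0.97), Dmxl1, Jtb, Emc6, Chchd10, Cct7, Hcfc1r1 and Fahd1 (0.96 to 0.97). Both lists come from the same arrays as the members and were chosen for likeness.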

How the data were processed

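The deposited table holds log values, read as log2, for 22690 probe sets on 36 Affymetrix arrays. How probes were summarised and normalized, and the log base, is not given in the sources used here. Each probe set's median was within 1e-06 of 0 in each surgery. Groups came from sample titles. Probe sets with 1 symbol in the platform annotation (20380) were averaged per gene (12393 genes), and 3 probe sets naming a member and another gene were left out. All 127 member probe sets matched RefSeq by Entrez identifier.

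Tests were moderated F-tests in limma 3.58.1 (R 4.3.3) over all genes and 36 arrays: a 24-hour cosine and sine per surgery, or 12 group means. P-values were adjusted by Benjamini-Hochberg, with a threshold of 0.05. The fits were tested on simulated data. Figures used matplotlib 3.10.9.

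Members and lists were chosen with earlier results of these data known. Named were members that passed, the 6 with the smallest p in each test, those with extreme ratios of SD (4 largest, 2 smallest) or correlations with other members (3 highest, 3 lowest), and listed genes that passed. Mrpl51, Mrps18c, Mrps36 and the genes beside printed promoters were named after their values were seen. P-values of the main fits compare a fitted change with a residual spread, pooled over both surgeries and moderated in limma. In the fit of group means this residual is the spread between the 3 mice of a group. In the fit of the curve it also holds departures of the group means from the curve.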

Additional observations from a re-analysis of the deposited data

How the results depend on the processing

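The count of members higher at the later times in both surgeries stayed between 67 and 72 under every alternative that could give it (70 to 72 without single arrays). The members' median difference of later and earlier times stayed above 0 in each surgery, as did their median log2 ratio of SDs. The unadjusted shares did not always keep their direction against all genes, as given above for the SHAM rhythm and the TAC change over the times. Counts of members passing moved more, and the percent of all genes passing in the same fit is given after each. Quantile normalization gave 12 members for the rhythm in SHAM (11.2% of all genes) and 0 in TAC (4.48%). It gave 5 for change over the times in SHAM (6.67%) and 1 in TAC (3.41%). The median log2 ratio of SDs was then 0.345, against 0.066 over all genes. Array weights gave 13 (15.9%) and 0 (5.12%) for the rhythm, 19 (29.2%) and 41 (40.1%) for change over the times, and 3 (14%) for the difference in time course. Fits to the 18 arrays of a surgery gave 11 (9.41%) and 0 (1.15%) for the rhythm and 4 (5.69%) and 0 (0.549%) for change over the times. Centring arrays on their median left 1 rhythm in TAC (4.23%), and each probe set by itself gave 5 (3.87% of all probe sets).

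Alternatives chosen after seeing the data were these. Without the 2 TAC arrays with the lowest and highest member means, 9 rhythms passed in SHAM (6.96%) and 1 in TAC (3.57%). There was 1 change over the times in SHAM (4.45%), and the ratio of SDs was 0.243, against 0.161 over all genes. Without the 4 arrays with thymocyte or airway markers 0 rhythms passed in TAC (5.15%). Without TAC ZT03 replicates 1 and 2, 0 rhythms (5.18%) and 0 changes over the times (4.07%) passed in TAC.

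Leaving out 1 array gave 2 to 7 rhythms in SHAM (4.18% to 6.27%) and 0 to 4 in TAC (3.16% to 4.99%). It gave 0 to 1 changes over the times in SHAM (2.32% to 4.02%) and 1 to 21 in TAC (3.78% to 9.90%), with 21 without TAC ZT11 replicate 1. The ratios of SDs were then 0.446 to 0.693, against 0.2375 to 0.4016 over all genes. Leaving out 1 replicate number gave 0 to 2 rhythms in SHAM (0.960% to 3.40%) and 0 in TAC. It gave 0 to 1 changes in SHAM and 0 to 14 in TAC (0.307% to 5.39%), with 14 without number 1. The ratio of SDs was 0.442 without number 1 (0.357 over all genes), 0.618 without number 2 (0.2475) and 0.636 without number 3 (0.331).

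The replicate number as a block gave the same counts (3, 2, 0, 0, 3 and 0). With group means removed, same-numbered arrays of different groups correlated at 0.038 on average over all genes (lowest -0.358), against -0.019 for arrays of different numbers. Over the members these averages were 0.026 and -0.012. An average over all genes cannot exclude a shift by replicate number in single genes. In SHAM, Mrpl11 read -0.10 to -0.020 on the arrays of replicate number 1 and 0.0097 to 0.057 on those of number 2. In Mrpl12, which passed the rhythm test in SHAM, replicate 1 was the lowest mouse at every SHAM time but ZT07. The causes were not tested. The number of arrays limits precision, and signal over background could not be assessed from centred values.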

Other observations

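Of the 65 members with a RefSeq window, 22 (33.8%) had a window that overlapped that of a gene starting on the opposite strand, against 11.9% of all genes with a window. Of these neighbours 14 were measured and were no members, and 4 (28.6%) were higher at the later times in both surgeries, against 28.7% of all genes. Those 4 were Ndufb5 beside Mrpl47, Psma2, a proteasome subunit, beside Mrpl32, Tcp1, a subunit of the chaperonin that folds actin and tubulin, beside Mrpl18, and Rab6a beside Mrpl48. Helq, a DNA helicase gene beside Mrps18c, was lower at the later times by 0.15 in TAC, where Mrps18c was higher by 0.25. Hira beside Mrpl40 was lower at the later times in SHAM (-0.015), where Mrpl40 was higher (0.092). These neighbours were named after their values were seen, and no test was made of them.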
